A study of Mus musculus with 13 samples.

Results

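The genes described here carry glucose into the cell and through glycolysis to lactate. They are the glucose carrier gene Slc2a1 and the enzyme genes Hk1, Hk2, Pfkl, Pfkp, Aldoa, Aldoc, Tpi1, Pgk1 and Ldha, so the set holds a carrier as well as enzymes. The members were the probe sets whose platform annotation gives exactly 1 symbol equal to one of these names, which gave 23 of 22690 probe sets. Each gene was read from its probe set of highest average level across all 13 arrays, so that the 10 genes stand among 12393 genes tested. The genes were listed as a pathway, with earlier results of these data known, so their counts against the shares of all genes are a description and not independent support. The arrays measured total RNA from the duodenum of mice of a mixed strain background. The mice were wild type (labelled CO) or mutant. The sources used here do not give the allele, the promoter that drives it or the cells that carry it. All mice went on their diet after 5 weeks of age and were killed after 22 weeks of it.

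The normal diet (ND) groups had 2 wild-type and 3 mutant arrays. The high-fat diet (HFD) groups had 2 wild-type and 2 mutant arrays. The third pair of groups had butyrate, a product of fibre fermentation by gut bacteria, added to the high-fat diet, with 1 wild-type and 3 mutant arrays. All groups shared the time on diet. Levels are the deposited log2 RMA values, so a difference of 1 is a doubling of the array signal, and levels of different genes are not compared because each probe set binds with its own strength. The submitters' design text speaks of mice, and no label states that each replicate is its own animal. The p-values therefore describe only how far these arrays differ, and the number of arrays limits the precision. Since whole duodenum was measured, fewer cells of a type and less RNA per cell cannot be told apart.

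Glycolysis splits glucose in the cytosol into pyruvate, with a small yield of ATP that needs no oxygen. A carrier lets glucose in, hexokinase traps it as a phosphate, phosphofructokinase makes the step that commits it to the pathway, and aldolase cuts the sugar into a pair of triose phosphates. Triosephosphate isomerase and phosphoglycerate kinase carry these on, and lactate dehydrogenase turns pyruvate into lactate, which restores the NAD that the pathway uses up. Aldolase has several isozymes in mammals, of which the product of Aldoc is best known from brain and that of Aldoa from muscle. Several of these genes are textbook targets of the hypoxia-inducible factor, whose binding sites hold the core letters ACGTG or GCGTG.

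The promoters of the 4 genes that rose in the mutants without butyrate, and of Tpi1 as a gene that did not pass that test, are shown because the genotype result turns on those 4. Each window holds the 250 bases before a RefSeq gene start on assembly GRCm38.p6, read 5′ to 3′ on the strand of the gene, with ACGTG and GCGTG, and with CACGT and CACGC as their reverse complements, in capitals. The windows are chr11:78322823-78323072 on the plus strand for Aldoc, chr10:78009808-78010057 on the minus strand for Pfkl, chr7:126799255-126799504 on the minus strand for Aldoa, chrX:106186850-106187099 on the plus strand for Pgk1 and chr6:124814159-124814408 on the minus strand for Tpi1. Where a gene has several starts, the window with the most matches is shown, and the first listed among ties.
Aldoc: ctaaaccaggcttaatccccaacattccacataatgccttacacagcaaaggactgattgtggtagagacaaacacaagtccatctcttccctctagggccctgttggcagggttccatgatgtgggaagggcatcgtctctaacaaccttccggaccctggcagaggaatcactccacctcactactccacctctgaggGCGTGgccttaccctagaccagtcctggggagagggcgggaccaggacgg
Pfkl: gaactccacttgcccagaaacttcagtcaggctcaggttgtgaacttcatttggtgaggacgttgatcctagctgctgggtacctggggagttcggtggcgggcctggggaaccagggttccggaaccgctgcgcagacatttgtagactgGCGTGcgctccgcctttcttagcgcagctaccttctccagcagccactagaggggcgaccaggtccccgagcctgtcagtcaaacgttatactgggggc
Aldoa: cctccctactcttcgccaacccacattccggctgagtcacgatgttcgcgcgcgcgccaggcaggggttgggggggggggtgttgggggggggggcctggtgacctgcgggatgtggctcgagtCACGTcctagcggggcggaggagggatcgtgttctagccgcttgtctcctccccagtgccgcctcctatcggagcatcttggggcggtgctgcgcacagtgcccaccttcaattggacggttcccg
Pgk1: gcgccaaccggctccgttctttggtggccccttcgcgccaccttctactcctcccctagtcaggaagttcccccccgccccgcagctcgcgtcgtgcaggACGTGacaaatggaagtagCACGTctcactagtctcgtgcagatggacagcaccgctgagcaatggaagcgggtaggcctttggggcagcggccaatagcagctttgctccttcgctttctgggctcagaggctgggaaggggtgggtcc
Tpi1: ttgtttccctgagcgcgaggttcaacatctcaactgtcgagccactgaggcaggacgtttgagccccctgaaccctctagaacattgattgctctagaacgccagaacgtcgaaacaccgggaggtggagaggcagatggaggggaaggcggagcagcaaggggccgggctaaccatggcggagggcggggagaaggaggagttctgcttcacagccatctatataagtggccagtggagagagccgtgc

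The Aldoc window held 1 match, at position -50 from the start, and the Pfkl window held 1, at -99. The Aldoa window held 1 match at -126, and the Pgk1 window held 2, at -150 and -131. No match lay in the Tpi1 window. All 10 genes were found in the RefSeq promoter table, with 15 windows between them, some of which overlap. Either core was found in 12 of the 15 windows, which belong to 9 of the 10 genes, whereas 38.6% of all 32851 windows of the table held either. ACGTG was found in 6 of the 15 windows against 16.6% of all windows, and GCGTG in 7 against 28.2%. A palindromic CACGTG counts on both strands, as in the Ldha window with 5 matches. Genes that did not pass the genotype test held matches too, such as Hk2 with 2 and Pfkp with 3. A match says that these letters are there, and occupancy was not measured.

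In the 9 arrays without butyrate, 4 of the 10 genes were higher in the mutants and 0 were lower: Aldoc, Pfkl, Aldoa and Pgk1. Across all genes tested, 4.63% passed this comparison in either direction and 2.24% were higher in the mutants. Aldoc had the largest difference of the 10, 2.45-fold, and Pfkl was 1.74-fold higher, Aldoa 1.41-fold and Pgk1 1.23-fold. With the probe sets used, all 10 differences were above 0, against 53% of all genes tested. Their median was 0.30 on the log2 scale, against 0.01 over all genes tested. A Tpi1 probe set that was not used gave -0.10. The 5 mutant arrays all lay above the 4 wild-type arrays for Aldoc and for Aldoa, as they did for 2.83% of all genes. The comparison, which asks how the mutation relates to transcript level at a given diet, fitted diet and genotype as terms in limma, and it was chosen knowing that the butyrate arrays move the genotype calls.

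**Figure D1:**
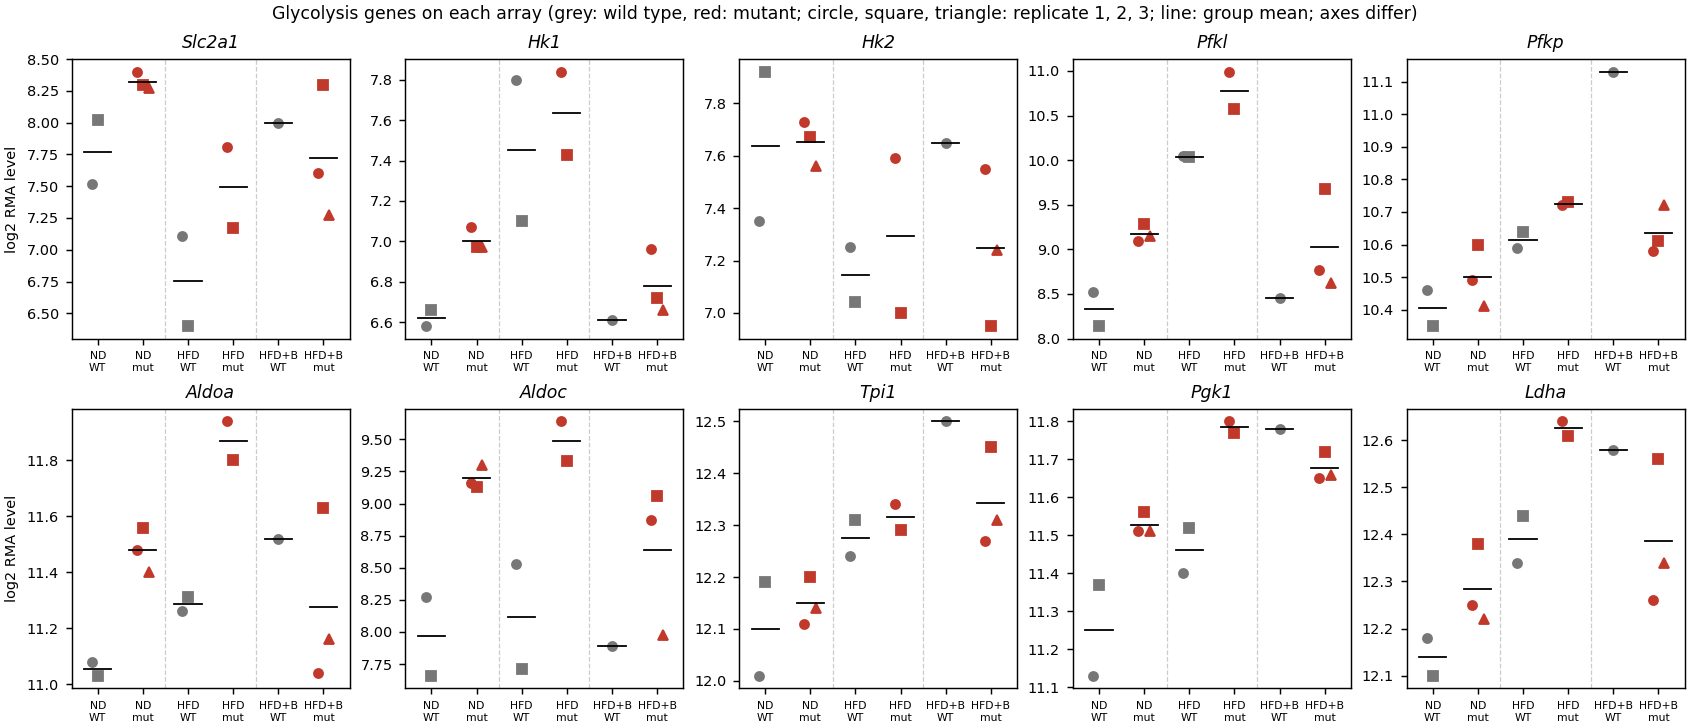
log2 RMA level (y axis, a separate range for each gene) of the 10 genes on each of the 13 arrays, by diet and genotype (x axis; ND, normal diet; HFD, high-fat diet; HFD+B, high-fat diet with butyrate); points are arrays and lines are group means. The Aldoc mutants on normal and high-fat diet lie between 9.13 and 9.64, above every wild-type array, while Pfkl is highest on high-fat diet in both genotypes.

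Aldoc, on chromosome 11 (chr11:78323073-78327781, GRCm38.p6), makes aldolase C. On normal diet its log2 levels were 8.27 and 7.66 in the wild type and 9.16, 9.13 and 9.30 in the mutants. On high-fat diet they were 8.53 and 7.71 in the wild type and 9.64 and 9.33 in the mutants. The mutants were above the wild type in each diet, and the wild-type arrays were spread more widely than the mutant arrays. With butyrate the wild-type array stood at 7.89 and the mutants at 8.87, 9.06 and 7.98, so mutant array 3 lay within the range of the wild type. The group means were 7.96 ± 0.43 (SD, n = 2) and 9.20 ± 0.09 (n = 3) on normal diet for wild type and mutants. They were 8.12 ± 0.58 (n = 2) and 9.48 ± 0.22 (n = 2) on high-fat diet. The mutants with butyrate averaged 8.64 ± 0.58 (n = 3). From the highest mean down, the order was mutant high-fat, mutant normal, mutant butyrate, wild-type high-fat, wild-type normal and wild-type butyrate. The arrays of the 3 mutant groups did not overlap each other, but the step from normal to high-fat diet did not pass the test (0.29 ± 0.32, limma adjusted p = 0.581) and that from normal diet to butyrate was within the SD of the latter and was not tested. The other neighbours in the order overlapped or lay within a group's range. Over the 9 arrays the genotype difference was 1.29 ± 0.17 (SE, limma adjusted p = 0.00432), and it stayed below the threshold when any 1 of the 9 arrays was left out, with adjusted p up to 0.0142.

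Aldoa (chr7:126795234-126800994) makes the muscle-type aldolase that most dividing cells use. On normal diet it measured 11.08 and 11.03 in the wild type and 11.48, 11.56 and 11.40 in the mutants. On high-fat diet the values were 11.26 and 11.31 against 11.94 and 11.80. These groups were tight and separate within each diet. With butyrate the wild-type array, at 11.52, lay among the mutants, at 11.04, 11.63 and 11.16. Without butyrate the difference was 0.50 ± 0.06 (limma adjusted p = 0.00417), and leaving out any array kept the adjusted p at 0.0142 or below.

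Pfkl (chr10:77986947-78009807) makes the liver-type subunit of phosphofructokinase. On normal diet its levels were 8.52 and 8.14 in the wild type and 9.09, 9.28 and 9.15 in the mutants. On high-fat diet they were 10.05 and 10.03 against 10.99 and 10.57. With butyrate the wild-type array had 8.46 and the mutants 8.77, 9.68 and 8.62. Pfkl therefore showed both a genotype and a diet difference, and the mutants were above the wild type in all 3 diets. The genotype difference without butyrate was 0.80 ± 0.11 (limma adjusted p = 0.00433), with an adjusted p of at most 0.0141 when any array was left out. Pfkp, the platelet-type subunit, had group means of 10.40 to 10.73 on the 2 diets and differed by 0.10 ± 0.06 between genotypes (adjusted p = 0.441).

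Pgk1, the phosphoglycerate kinase gene on the X chromosome (chrX:106187100-106203699), measured 11.13 and 11.37 in the wild type and 11.51, 11.56 and 11.51 in the mutants on normal diet. On high-fat diet it measured 11.40 and 11.52 against 11.80 and 11.77. The mutants were higher within each diet, by 0.30 ± 0.07 over both (limma adjusted p = 0.0321). That call was lost when any array other than wild-type ND array 2 was left out, with adjusted p up to 0.0916. Xist, the transcript of the inactive X chromosome, was at 10.51 to 11.87 on all arrays and the Y-linked Eif2s3y at 2.15 to 2.63.

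The other 6 genes did not pass this test. Slc2a1, which makes the glucose carrier GLUT1, measured 7.52 and 8.02 in the wild type and 8.40, 8.30 and 8.27 in the mutants on normal diet. On high-fat diet it measured 7.11 and 6.40 against 7.81 and 7.17. The mutants were above the wild type in each diet, with a difference of 0.63 ± 0.18 (limma adjusted p = 0.0726). Ldha, the muscle-type lactate dehydrogenase gene, had 12.18 and 12.10 against 12.25, 12.38 and 12.22 with normal diet and 12.34 and 12.44 against 12.64 and 12.61 on high-fat diet, a difference of 0.18 ± 0.06 (adjusted p = 0.124). Hk1, the widely expressed hexokinase gene, differed by 0.29 ± 0.14 (adjusted p = 0.321). Hk2, the hexokinase gene that muscle and many tumours express, differed by 0.08 ± 0.15 (adjusted p = 0.84) and Tpi1, which makes triosephosphate isomerase, by 0.05 ± 0.06 (adjusted p = 0.735). Tpi1 spanned only 12.01 to 12.50 over all 13 arrays and Hk2 6.95 to 7.92.

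Within a single diet no member passed. On normal diet 0 of the 10 genes did (0.0242% of all genes), and the Aldoc difference was 1.23 ± 0.32 (limma adjusted p = 0.161). On high-fat diet 0 of 10 passed (0.0403% of all genes), with Aldoc at 1.37 ± 0.35 (adjusted p = 0.19). At an unadjusted p below 0.05, 12.7% of all genes passed with normal diet and 11.3% with high-fat diet. For 7 of the 10 genes every mutant array lay above every wild-type array under normal diet, against 16.7% of all genes. Under high-fat diet the same count was 7, against 24.2%. Aldoc, Aldoa, Slc2a1, Pfkl, Pgk1 and Ldha were above in both diets, 6 of 10, against 924 genes or 7.46% of all. The difference between the genotype effects of the 2 diets passed for 0 of 10 genes (0.00807% of all genes), with adjusted p from 0.945 to 0.996, and for Aldoc it was 0.13 ± 0.47. At an unadjusted p below 0.05 this interaction passed for 5.01% of all genes.

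Over all 13 arrays, with the 3 diets as terms, Aldoc and Pfkl were higher in the mutants, 2 of 10 genes, whereas 1.02% of all genes passed and 0.428% were higher. Aldoc differed by 1.15 ± 0.20, or 2.22-fold (limma adjusted p = 0.0355), and Pfkl by 0.74 ± 0.16, or 1.67-fold (adjusted p = 0.0471). Aldoa (0.31 ± 0.12, adjusted p = 0.229) and Pgk1 (0.20 ± 0.07, adjusted p = 0.183) did not pass here. The arrays of the 2 genotypes overlapped for all 10 genes, whereas all mutants lay above all wild-type arrays for 0.274% of genes and below them for 0.113%. Both calls were lost when any 1 of the 9 normal or high-fat arrays was left out, with adjusted p up to 0.0853 for Aldoc and 0.106 for Pfkl. Without the wild-type butyrate array, 4 of the 10 members passed. Leaving out mutant butyrate array 1, 2 or 3 left 2 of them passing. The shares of all genes in these fits are not given here.

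**Figure D2:**
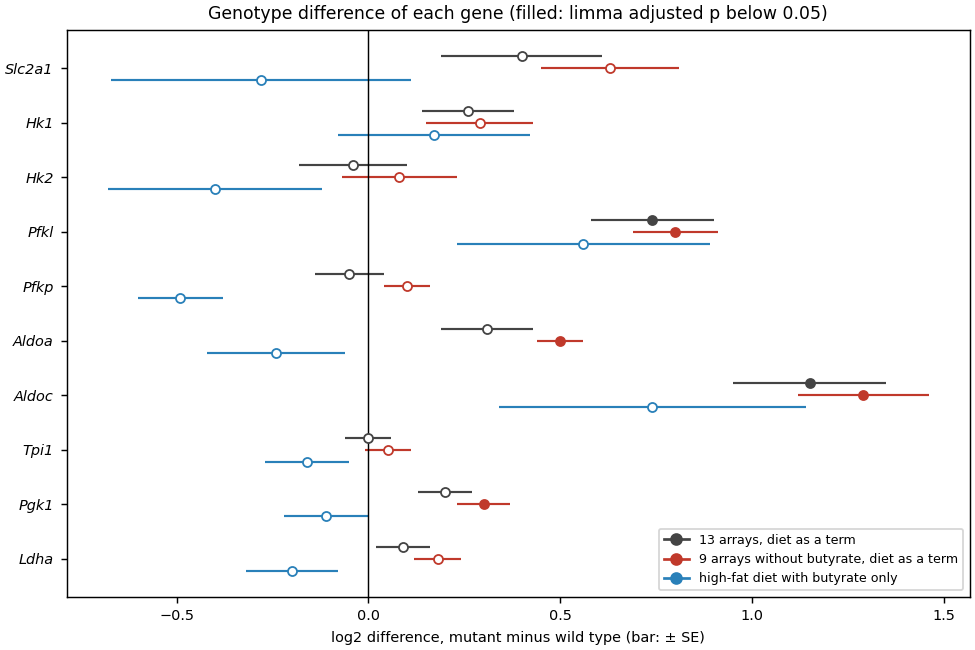
Mutant minus wild-type log2 difference (x axis) with its SE for each of the 10 genes (y axis), from all 13 arrays, from the 9 arrays without butyrate and within high-fat diet with butyrate; filled points passed limma at an adjusted p of 0.05. Aldoc has the largest difference in each fit (1.15, 1.29 and 0.74), and 7 genes fall below 0 with butyrate.

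With butyrate the mutants did not stand above the wild type as a set. The difference was above 0 for Aldoc (0.74 ± 0.40), Pfkl (0.56 ± 0.33) and Hk1 (0.17 ± 0.25) and below 0 for the other 7 genes, with a median of -0.18 against -0.02 over all genes. By limma 0 of 10 genes passed, as did 0% of all genes, and 6.04% of all genes had an unadjusted p below 0.05. Pfkp was at 11.13 in the wild-type array and at 10.58, 10.61 and 10.72 in the mutants, a difference of -0.49 ± 0.11 (unadjusted p = 0.000983, adjusted p = 0.683). The 3 mutant arrays lay above the wild-type array for 3 genes, against 22.6% of all genes, and below it for 5, against 28%. Pgk1 was at 11.78 against 11.65, 11.72 and 11.66, and Ldha at 12.58 against 12.26, 12.56 and 12.34. In both the wild-type array was the highest of the 4. For Slc2a1 it lay among the mutants, at 7.60, 8.30 and 7.27. For 3 of the 10, Pfkp, Pgk1 and Ldha, the mutants lay above the wild type in 1 or both of the other diets and below it here, against 7.54% of all genes. This comparison rests on 1 wild-type array, which was assumed to vary like the other groups. The mutant arrays were also uneven: array 2 had the highest Aldoc, Pfkl and Aldoa levels of the 3. Other genes that differed by genotype set array 2 apart as well, as given below, so the mutant mean with butyrate joins unlike arrays.

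Tested against the genotype effect in the other diets, the butyrate effect passed for 0 of 10 genes (0.00807% of all genes). With the probe sets used, all 10 differences were below 0, whereas 45.3% of all genes were above 0. An Aldoc probe set that was not used gave 0.18. Of all genes, 7.08% had an unadjusted p below 0.05. The values were -0.74 ± 0.21 for Aldoa (limma adjusted p = 0.639), -0.60 ± 0.13 for Pfkp (adjusted p = 0.445) and -0.40 ± 0.13 for Pgk1 (adjusted p = 0.653). For Aldoc the value was -0.56 ± 0.46 (adjusted p = 0.853). The 10 values share the same single wild-type array.

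On high-fat diet, Pfkl and Hk1 were higher than on normal diet in both genotypes. In the wild type 2 of 10 genes passed, both higher, against 11% of all genes in either direction and 5.62% higher. Pfkl rose by 1.72 ± 0.29, or 3.29-fold (limma adjusted p = 0.00462). Hk1 rose by 0.83 ± 0.21, or 1.77-fold (adjusted p = 0.0309). In the mutants 3 of 10 passed, against 17.7% of all genes and 7.67% higher. Pfkl rose by 1.61 ± 0.26, or 3.05-fold (adjusted p = 0.00244), Hk1 by 0.63 ± 0.19, or 1.55-fold (adjusted p = 0.0455), and Ldha by 0.34 ± 0.10, or 1.27-fold (adjusted p = 0.0336).

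Hk1 was at 6.58 and 6.66 in the wild type and 7.07, 6.97 and 6.97 in the mutants on normal diet. On high-fat diet it was at 7.80 and 7.10 in the wild type and 7.84 and 7.43 in the mutants, so replicate 1 of each genotype was the higher. With butyrate it was 6.61 in the wild type and 6.96, 6.72 and 6.66 in the mutants. The Hk1 call in the wild type was lost without WT HFD array 1 (0.47, adjusted p = 0.194) or without either normal-diet wild-type array. In the mutants it passed in 4 of 13 fits with an array left out, and the Ldha call in 9 of 13. The Pfkl call held in 13 of 13 fits in both genotypes. Slc2a1 had differences of -1.02 ± 0.33 in the wild type (adjusted p = 0.0755) and -0.83 ± 0.30 in the mutants (adjusted p = 0.0842), and Aldoc of 0.16 ± 0.35 and 0.29 ± 0.32.

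**Figure D3:**
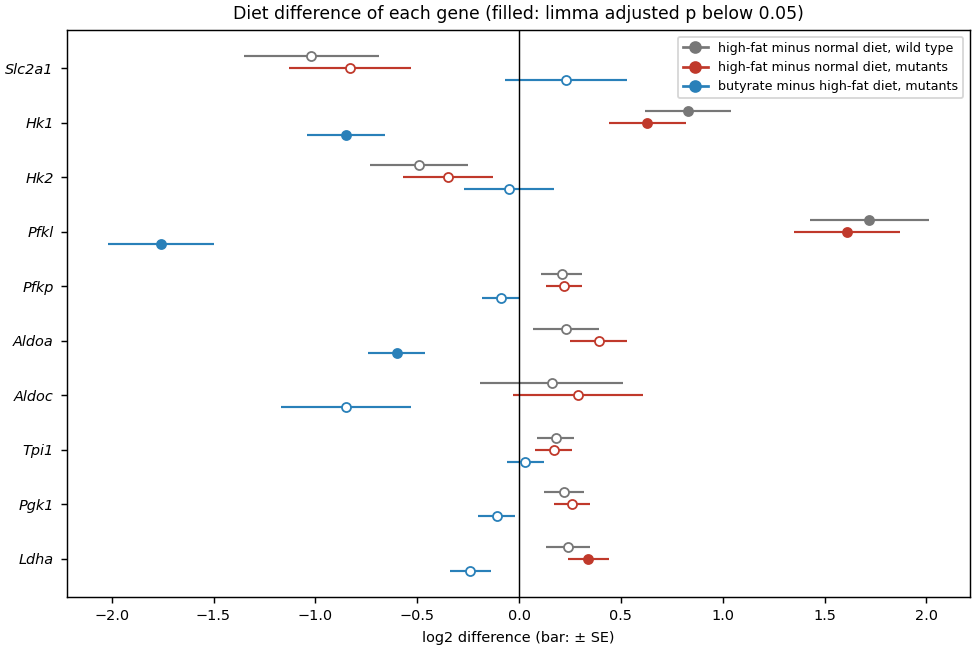
log2 difference with its SE (x axis) between diets for each of the 10 genes (y axis): high-fat minus normal diet in the wild type and in the mutants, and butyrate minus high-fat diet in the mutants; filled points passed limma at an adjusted p of 0.05. Pfkl moves by 1.72, 1.61 and -1.76, and the last 2 of these use the same mutant high-fat arrays.

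In the mutants, adding butyrate to high-fat diet went with lower Pfkl, Hk1 and Aldoa, 3 of 10 genes, against 21.7% of all genes in either direction and 8.78% lower. Pfkl fell by 1.76 ± 0.26, or 3.38-fold (limma adjusted p = 0.00119), from 10.78 ± 0.30 (SD, n = 2) to 9.02 ± 0.57 (n = 3). Hk1 fell by 0.85 ± 0.19, or 1.81-fold (adjusted p = 0.0102), and Aldoa fell by 0.60 ± 0.14, or 1.51-fold (adjusted p = 0.0136). Aldoc had a difference of -0.85 ± 0.32 (adjusted p = 0.0774). Without mutant butyrate array 2 the Aldoc difference was -1.06 (adjusted p = 0.0346) and 5 of the 10 members passed. The share of all genes in that fit is not given here. The Hk1 and Aldoa calls were lost when mutant HFD array 1 was left out. This comparison uses the same 2 mutant high-fat arrays as the diet comparison above, so the opposite signs of Pfkl and Hk1 in the 2 are not independent. The wild type has 1 butyrate array, at 8.46 for Pfkl against 10.05 and 10.03 on high-fat diet.

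Diet and array series cannot be told apart here, since each diet has array identifiers from its own number range, while genotype comparisons lie within a range. A control for RNA quality moved with diet: the 3′ minus 5′ difference of the Actb control probe sets was 0.63 to 0.73 on normal diet, 0.20 to 0.42 on high-fat diet and 0.27 to 0.70 with butyrate. On normal diet the genotypes overlapped in it, and on high-fat diet it was 0.32 and 0.42 in the wild type and 0.28 and 0.20 in the mutants. Its part in the differences was not tested. The Gapdh control, itself a glycolysis gene, was at 12.57 and 12.54 in the wild type and 12.68, 12.74 and 12.65 in the mutants on normal diet with its 3′ probe set. On high-fat diet it was at 12.74 and 12.85 against 13.08 and 13.06, so the mutants lay above the wild type in both diets. With butyrate the wild-type array, at 12.73, lay among the mutants, at 12.50, 12.88 and 12.57. Control probe sets were not in the test. Array medians lay between 6.04 and 6.14.

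Genes with several probe sets were compared in a fit of all probe sets, which adjusts over more tests. All 4 Aldoa probe sets had genotype differences of 0.43 to 0.50 without butyrate, with limma adjusted p from 0.00475 to 0.0561. For diet they gave different calls: in the mutants the used probe set had 0.39 ± 0.14 (adjusted p = 0.0746), and the others 0.89 ± 0.15 (adjusted p = 0.00204), 0.51 ± 0.15 (adjusted p = 0.0311) and 0.34 ± 0.18 (adjusted p = 0.225). In the wild type 1 of the 4 passed, at 0.66 ± 0.17 (adjusted p = 0.023), and with butyrate in the mutants all 4 were lower. The name ending x_at on those probe sets marks probes that can also bind related transcripts. Both Pfkl probe sets passed for genotype without butyrate (0.80 and 0.71), and for diet the second gave 1.68 in the wild type and 1.78 in the mutants. Over the 3 diets neither Pfkl probe set passed for genotype in this fit (limma adjusted p = 0.0567 and 0.0752). The 3 Pgk1 probe sets each gave 0.30 for genotype without butyrate, with limma adjusted p of 0.0368 for the used one and 0.0262 and 0.0519 for the others. Aldoc had a second probe set at 2.55 to 4.10, below the 30th percentile of all genes (5.09), with a genotype difference of 0.39 ± 0.15 (adjusted p = 0.199), and the mean of both gave 0.84 (limma adjusted p = 0.0139 over all genes).

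Probe sets disagreed most in sign for Slc2a1. For genotype without butyrate the used probe set gave 0.63 ± 0.18 (limma adjusted p = 0.0838 in this fit), whereas the others gave 0.87 ± 0.11 (adjusted p = 0.00376) and 0.65 ± 0.12 (adjusted p = 0.0176). For high-fat against normal diet the used probe set gave -1.02 in the wild type and -0.83 in the mutants, and the others -0.40 and 0.27 in the wild type and -0.08 and 0.50 in the mutants. The genotype difference of Slc2a1 therefore had the same sign in all 3 probe sets and the diet difference did not. Pfkp also depended on the probe set, since its dimmer one gave 0.93 ± 0.31 (adjusted p = 0.0659) and 1.14 ± 0.28 (adjusted p = 0.0137) for diet, against 0.21 and 0.22 for the used one. The second Hk1 probe set rose with high-fat diet by 1.52 ± 0.40 and 1.15 ± 0.36 in the wild type and the mutants.

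**Figure D4:**
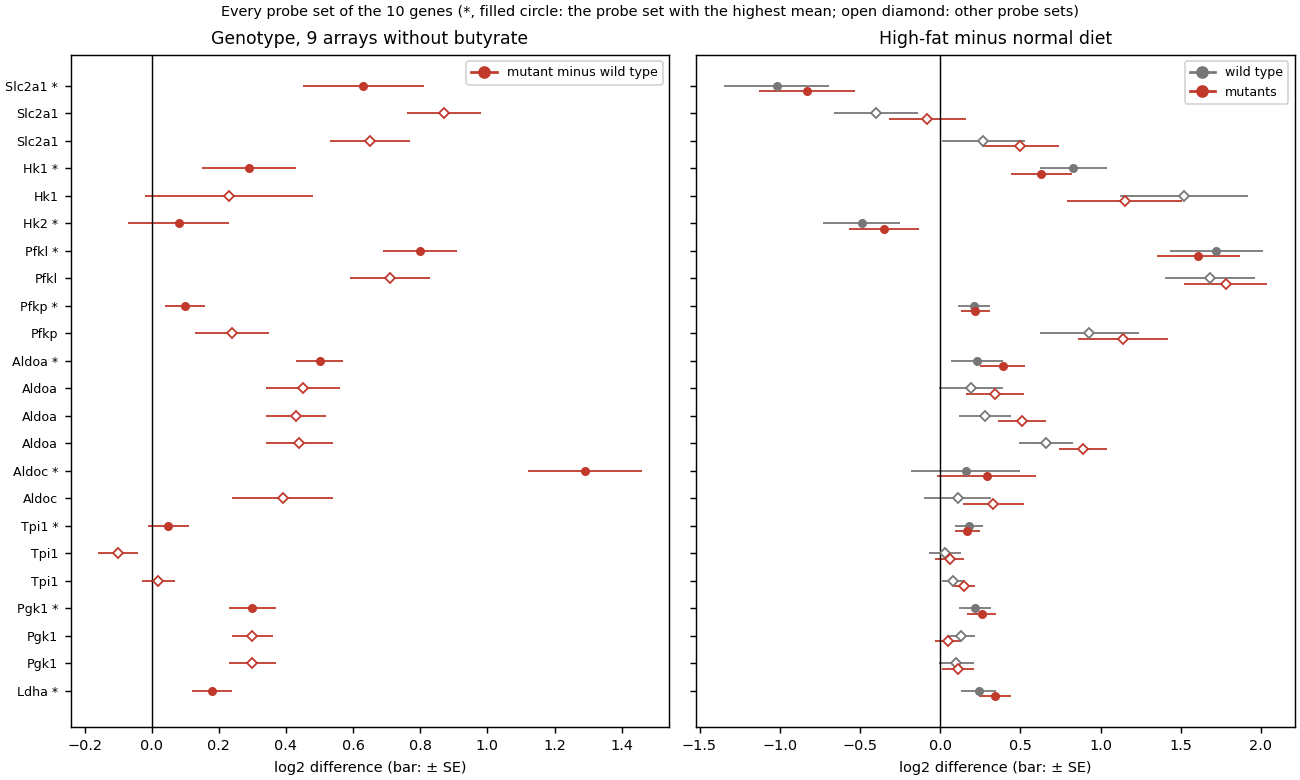
log2 difference with its SE (x axis) for each of the 23 probe sets of the 10 genes (y axis; star and filled circle, the probe set used; open diamond, others): mutant minus wild type without butyrate on the left, high-fat minus normal diet on the right. The Slc2a1 probe sets agree on genotype (0.63 to 0.87) and split around 0 for diet (-1.02 to 0.50).

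The rest of the pathway gave another picture in the mutants. Of 16 other measured glycolysis enzymes and glucose or lactate carriers, 0 rose and 2 fell in the mutants without butyrate, with a median difference of -0.02, whereas 2.39% of all genes were lower. Pfkfb3, whose enzyme makes the activator of phosphofructokinase, fell by 1.05 ± 0.20 (limma adjusted p = 0.0171), and the glucose carrier gene Slc2a3 fell by 0.50 ± 0.12 (adjusted p = 0.0475). Pfkfb3 was at 6.33 and 6.82 against 5.67, 6.10 and 5.96 on normal diet and at 6.17 and 6.54 against 4.99 and 4.66 on high-fat diet. The Slc2a3 call held in 1 of 9 fits with an array left out. With means of probe sets neither passed, with Pfkfb3 at -0.60 (adjusted p = 0.0813) and Slc2a3 at -0.19 (adjusted p = 0.251). Gapdh, Eno1 and Gpi1, among other listed genes, had no probe set with a single symbol and are not analysed here.

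With high-fat diet the lactate carrier gene Slc16a3 had a larger difference than any of the 10 members, which was not tested against theirs. Its levels were 5.51 and 5.63 in the wild type and 5.54, 5.92 and 5.73 in the mutants on normal diet, and 8.74, 8.45, 8.63 and 8.10 on the 4 high-fat arrays. With butyrate it was at 5.33 in the wild type and 5.69, 5.87 and 5.35 in the mutants, so the high-fat arrays stood alone. The rise was 3.02 ± 0.22 in the wild type (8.12-fold, limma adjusted p = 4.2e-05) and 2.63 ± 0.20 in the mutants (6.21-fold, adjusted p = 4.62e-05). In this list 3 of 16 genes rose in the wild type and 4 in the mutants, and 0 fell, whereas 5.62% and 7.67% of all genes rose. Both counts held the pyruvate kinase genes Pkm (0.83 ± 0.13 and 0.86 ± 0.12) and Pklr (0.73 ± 0.13 and 0.81 ± 0.11), and the mutants added Pfkfb2 (0.72 ± 0.20). With butyrate in the mutants, Slc16a3 fell by 2.73 ± 0.20, Pklr fell by 1.11 ± 0.11, Pkm fell by 0.44 ± 0.12 and Adpgk fell by 0.64 ± 0.19, whereas Pfkfb3 rose by 1.55 ± 0.43 and Slc16a1 by 0.39 ± 0.12, 6 of 16 genes in all, against 21.7% of all genes. The Adpgk call held in 1 of 5 alternatives (-0.16 with the mean of its probe sets), that of Slc16a1 in 2 of 6 alternatives and 4 of 13 fits with an array left out, and that of Pfkfb3 in 3 of 6 (0.79 with the mean of its probe sets).

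**Figure D5:**
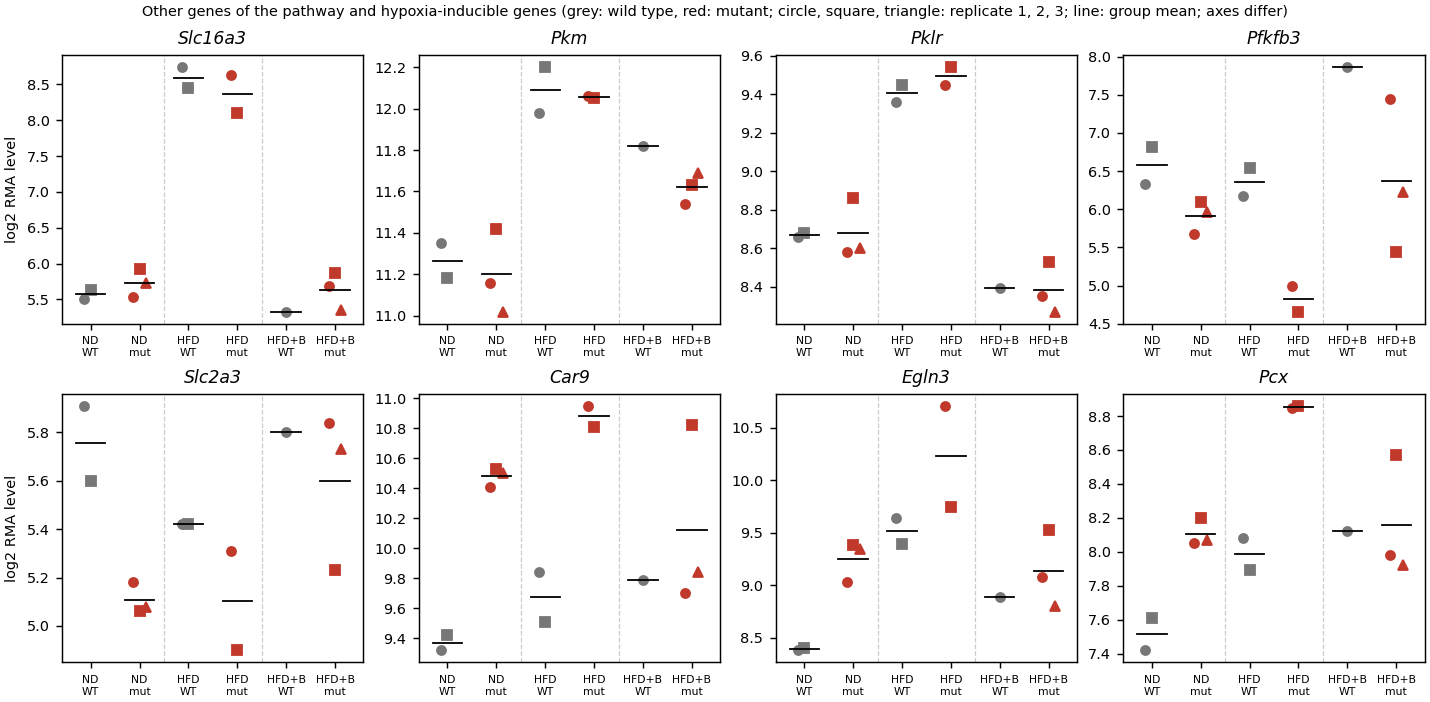
log2 RMA level (y axis, a separate range for each gene) of 8 genes outside the 10 members on each of the 13 arrays, by diet and genotype (x axis as in the plot of the 10 genes); points are arrays and lines are group means. Slc16a3 lies between 8.10 and 8.74 on high-fat diet and at 5.92 or below elsewhere, and Car9 separates the genotypes on normal and high-fat diet.

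Of 15 measured hypoxia-inducible genes outside glycolysis, 2 rose in the mutants without butyrate and 0 fell, with a median of 0.23, whereas 2.24% of all genes were higher. Car9, a membrane carbonic anhydrase and a common marker of hypoxia, rose by 1.15 ± 0.08, or 2.22-fold (limma adjusted p = 0.000138). Its levels were 9.32 and 9.42 in the wild type against 10.41, 10.53 and 10.50 on normal diet, and 9.84 and 9.51 against 10.95 and 10.81 on high-fat diet. With butyrate Car9 was at 9.79 in the wild type and 9.70, 10.82 and 9.84 in the mutants, so the mutants stood apart in both other diets and only array 2 stood apart here. Egln3, a prolyl hydroxylase that marks the factor for decay, rose by 0.79 ± 0.17 (adjusted p = 0.0289), a call that held in 2 of 9 fits with an array left out. Over all 13 arrays Car9 alone of this list passed (0.94 ± 0.18, adjusted p = 0.0412), as did 1.02% of all genes.

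Of the 6 measured regulators of the hypoxia-inducible factor, 0 passed for genotype without butyrate, where Epas1 (0.57 ± 0.16, limma adjusted p = 0.0763) and Arnt (0.16 ± 0.10, adjusted p = 0.446) had the smallest p-values. With high-fat diet 2 of the 6 rose in the wild type and 3 in the mutants, against 5.62% and 7.67% of all genes. With butyrate 2 fell in the mutants, against 8.78% of all genes. Epas1, which makes a subunit of the factor, rose with high-fat diet by 1.46 ± 0.26 in the wild type and 1.85 ± 0.24 in the mutants, and it fell by 1.74 ± 0.24 with butyrate in the mutants. Vhl, whose protein tags the factor for breakdown, rose with high-fat diet by 0.54 ± 0.15 and 0.71 ± 0.14. Its call in the wild type held in 3 of 6 alternatives and 4 of 13 fits with an array left out. Arnt, the partner subunit, rose in the mutants by 0.84 ± 0.18 and fell by 1.04 ± 0.18 with butyrate. Of the 15 targets 3 passed in each of these comparisons, a share near that of all genes in the mutants (17.7% with high-fat diet and 21.7% with butyrate; 11% in the wild type). Egln3 rose with high-fat diet by 1.13 ± 0.29 in the wild type and 0.98 ± 0.26 in the mutants and fell by 1.10 ± 0.26 with butyrate. P4ha1 rose by 0.78 ± 0.21 in the mutants and fell by 0.88 ± 0.21 with butyrate. Higd1a fell by 0.43 ± 0.10 in the wild type and rose by 0.46 ± 0.10 with butyrate. In the mutants it fell by 0.32 ± 0.10 with high-fat diet, a call that held in 1 of 6 alternatives and 6 of 13 fits with an array left out, and was -0.09 (adjusted p = 0.614) with the mean of its probe sets. Ak4 fell by 0.47 ± 0.11 in the wild type, but was at -0.05 (adjusted p = 0.904) with the mean of its probe sets.

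Pyruvate oxidation, gluconeogenesis and the pentose phosphate pathway share intermediates with glycolysis. For genotype without butyrate, 0 of 10 pyruvate oxidation genes passed, with Pdk3 at -0.47 ± 0.13 (limma adjusted p = 0.0631) and Pdk1 at 0.26 ± 0.09 (adjusted p = 0.139). Of 7 gluconeogenesis genes 1 rose, Pcx, whose pyruvate carboxylase feeds the citric acid cycle, by 0.72 ± 0.09 (adjusted p = 0.00335), against 2.24% of all genes. Pcx was at 7.42 and 7.61 against 8.05, 8.20 and 8.07 on normal diet and at 8.08 and 7.89 against 8.85 and 8.86 on high-fat diet. Of 6 pentose phosphate genes 0 passed, with Tkt at 0.15 ± 0.07 and Rpe at -0.14 ± 0.07.

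With high-fat diet Pdk2, a kinase that switches off pyruvate dehydrogenase, rose by 0.79 ± 0.21 in the wild type and 0.81 ± 0.19 in the mutants. With butyrate in the mutants it fell by 1.15 ± 0.19, while the pyruvate dehydrogenase genes Pdhb (0.65 ± 0.12), Pdha1 (0.34 ± 0.08) and Dlat (0.42 ± 0.11) and the pyruvate carrier gene Mpc1 (0.33 ± 0.10) rose, so that 5 of 10 genes of the list passed, against 21.7% of all genes. In the mutants Pdhb fell by 0.49 ± 0.12 with high-fat diet. Of the 7 gluconeogenesis genes 0 passed with high-fat diet in the wild type, where Pck1 (-1.32 ± 0.53, limma adjusted p = 0.138) and Pcx (0.47 ± 0.19, adjusted p = 0.142) had the smallest p-values. Pcx rose by 0.75 ± 0.17 in the mutants with high-fat diet and fell by 0.70 ± 0.17 with butyrate, and Fbp1, a gluconeogenesis enzyme gene, rose by 1.07 ± 0.33 with butyrate. In the pentose phosphate list 1 of 6 genes passed in each comparison, Rpia, which fell by 0.45 ± 0.12 and by 0.40 ± 0.11 with high-fat diet and rose by 0.49 ± 0.11 with butyrate. Over all genes 11%, 17.7% and 21.7% passed in these comparisons. The Rpia call in the wild type held in 5 of 13 fits with an array left out. The Mpc1 call with butyrate held in 3 of 6 alternatives and 7 of 13 such fits. All of the calls were made by limma at the same threshold, and the diet comparisons carry the limit on array series given above.

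Markers of other cells moved with genotype in the same arrays. Without butyrate, 5 of 5 Paneth cell markers and 6 of 7 macrophage markers fell in the mutants by limma and 0 rose, whereas 2.39% of all genes fell. Mmp7 fell by 2.53 ± 0.28 and Lyz2 fell by 1.57 ± 0.20. The mean level of the Paneth markers was 10.38 to 11.10 in the wild type and 8.07 to 8.63 in the mutants on normal diet, and 9.63 to 9.95 against 7.11 to 8.32 on high-fat diet. The mean of the macrophage markers was 8.10 to 8.52 against 7.30 to 7.52 and 8.03 to 8.21 against 6.77 to 7.42. With butyrate the Paneth mean was 9.23 in the wild type and 9.83, 7.32 and 8.96 in mutant arrays 1, 2 and 3. The macrophage mean was 8.17 in the wild type and 7.97, 7.42 and 8.14 in these mutant arrays. In both means only array 2 lay within the range of the mutants on the other diets. Of the T cell markers 2 of 5 fell, of the B and plasma cell markers 1 of 4 and of the fibroblast markers 1 of 5, and 0 of the 13 acinar, 8 smooth muscle, 4 goblet and 3 erythrocyte markers passed. Their part in the differences of the glycolysis genes was not tested. The enterocyte mean lay between 12.50 and 13.22 over all arrays, with 0 of 7 markers passing.

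The label of duodenum was compared with its markers. The mean of 4 measured duodenal markers was 7.53 to 10.92, and 1 of them, the iron reductase gene Cybrd1, rose in the mutants by 1.73 ± 0.41 without butyrate. This mean moved with diet as well, as Pfkl and Hk1 did. It was 7.61 to 7.64 in the wild type and 7.78 to 7.93 in the mutants with normal diet, 8.79 to 9.18 and 10.04 to 10.92 with high-fat diet, and 7.66 and 7.53 to 9.69 with butyrate. In the mutants Cybrd1 was at 6.21, 6.30 and 6.32 on normal diet and 11.44 and 9.76 on high-fat diet. Slc11a2 was at 7.12, 7.57 and 7.20 against 12.03 and 11.02. Slc40a1 was at 10.26, 10.32 and 10.66 against 11.96 and 11.21, and Pdx1 at 7.55, 7.53 and 7.53 against 8.24 and 8.19. Between these diets the mean thus moved mostly through Cybrd1 and Slc11a2, and it is not read here as a measure of region. A change in the region sampled was not tested. In the mutants 3 of the 4 duodenal markers rose with high-fat diet and 2 fell with butyrate, while 3 of 7 macrophage markers rose with butyrate, and the part of these markers in the diet differences was not tested. Of all genes, 7.67% were called higher with high-fat diet and 8.78% lower with butyrate in the mutants. With butyrate 21.7% of all genes passed in either direction. The mean level of the ileal markers was 2.52 to 3.09 and that of the colonic markers 3.78 to 5.64. Pancreatic acinar markers varied from a mean of 5.06 to 11.68 between arrays of the same group as well as between groups, and with butyrate it was 10.21 in the wild type and 5.06 to 9.46 in the mutants. With that mean as a covariate, Aldoc (1.19, limma adjusted p = 0.0249) and Pfkl (0.79, adjusted p = 0.0303) passed for genotype over the 3 diets. Markers of enteric neurons and glia, cells whose brain counterparts express Aldoc, averaged 4.55 to 4.81, and 0 of 8 passed for genotype. Array levels do not give the number of these cells, and their part in the Aldoc signal was not tested.

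Genes were ranked by their correlation with Aldoc over the 13 arrays, with predicted and clone-named genes left out. Those whose levels followed Aldoc most closely were Adh4, an alcohol dehydrogenase gene, with a Pearson r of 0.979 and a Spearman rho of 0.945, then Slc12a8 (0.914), Lmcd1 (0.904), Tcf23 (0.900) and Tm4sf4 (0.895). Adh4 was at 9.56 and 9.14 in the wild type and 10.16, 10.19 and 10.09 in the mutants on normal diet, and at 9.80 and 9.29 against 10.36 and 10.27 on high-fat diet. With butyrate it was at 9.34 in the wild type and 9.85, 10.11 and 9.17 in the mutants, so its lowest mutant array was array 3, as for Aldoc. In each of these 5 genes mutant butyrate array 2 had the highest level of that group. Tcf23 was at 5.26, 8.49 and 4.85 on mutant butyrate arrays 1, 2 and 3, and Tm4sf4 at 10.96, 12.67 and 11.07. The wild-type butyrate array was at 4.78 for Tcf23 and 10.57 for Tm4sf4. Among the members the closest was Aldoa, with an r of 0.673 at rank 249 of the genes ranked, followed by Pfkl (0.574) and Hk1 (0.527). Tpi1 (-0.079) and Pfkp (-0.116) had values near 0. These figures describe arrays that share group and array series.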

How the data were processed

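The 13 Affymetrix arrays fell into 6 groups by labelled genotype and diet. The mutated gene is not reported here. The deposited values are log2 levels that the authors made with Affymetrix Expression Console 1.1 by RMA, a method of background correction, quantile normalization and probe summary (per the submitters' processing notes). Per the labels, 200 ng of total RNA was labelled with biotin with whole-transcript kits, although the probe set names belong to a 3′ array design. The sources used here give no genome build. At most 408 of 22690 probe sets were equal to 3 decimals in any pair of arrays.

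Of the probe sets, 20380 had 1 gene symbol, 691 several, 1555 none and 64 were controls. The probe set with the highest mean stood for each of 12393 genes. Entrez identifiers of 20351 probe sets matched RefSeq (GRCm38.p6), and 0 symbols changed.

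Tests used limma 3.58.1 in R 4.3.3 (lmFit, contrasts, eBayes with an intensity trend), two-sided, adjusted by Benjamini-Hochberg over all genes at 0.05, after a run on simulated data. Comparisons within 1 diet or genotype used 6 group means over all arrays, with 7 residual degrees of freedom. Comparisons over several diets had diet and genotype as terms. The genes named are the 10 members, list genes past the threshold (up to 6 per list and comparison, otherwise the 2 smallest p, given for the genotype comparison without butyrate), and the 5 genes most correlated with Aldoc, predicted and clone-named genes left out. Cell markers named beside them are examples chosen after their values were seen. The members and lists were chosen with earlier results of these data known. Alternatives were quantile normalization, a filter on dim genes, means of probe sets, no trend, replicate number as a block, equal weight for diets, groups fitted alone, an acinar covariate and leaving out each array.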

Additional observations from a re-analysis of the deposited data

Results flagged for a closer look

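In 3 of the 10 genes the mutants lay above the wild type in 1 diet (Pfkp) or 2 (Pgk1 and Ldha) and below it with butyrate, with no overlap of arrays, as did 7.54% of all genes. For Pfkp the genotype difference on high-fat diet exceeded that with butyrate by 0.60 on the log2 scale. For Pgk1 it exceeded that with butyrate by 0.38 on normal diet and by 0.42 on high-fat diet. For Ldha the corresponding values were 0.34 and 0.44. The wild type with butyrate is 1 array, and limma's test of the butyrate effect against both other diets together did not pass for Pfkp (adjusted p = 0.445), Pgk1 (0.653) or Ldha (0.653). Each pair of diets was not tested on its own.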

How the results depend on the processing

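Diet and genotype groups held 1 to 3 arrays. No difference that passed changed its sign under any alternative. For genotype over 3 diets, the count of members was 1 with means of probe sets or with no intensity trend, 0 with each diet weighted equally and 4 on normal and high-fat arrays only. With the replicate block it was 3, with Aldoa and Pgk1 passing beside Aldoc and Pfkl not (limma adjusted p = 0.0551). The count over all genes, 127 as reported, was 58 with no trend, 221 with the replicate block, 5 with equal diets, 574 on normal and high-fat arrays only and 295 with the acinar covariate. Without butyrate it was 244 with the replicate block instead of 574. Within normal diet it was 0 with the replicate block and 36 with the groups alone. Within high-fat diet it was 3 without dim genes. With groups alone, the high-fat against normal comparison in the wild type gave 1 member and 116 genes. In the mutants it gave 5 members with means of probe sets, 1 with the replicate block and 6 with groups alone. The butyrate comparison in the mutants gave 5 members with means of probe sets. As reported, 17.7% and 21.7% of all genes passed in these comparisons. The shares under these alternatives are not given here, so these member counts cannot be set against them. The interaction of genotype with diet gave 2 genes with quantile normalization, means of probe sets or groups alone. Slc2a1 passed for genotype without butyrate with means of probe sets (0.72, limma adjusted p = 0.0127). Means of probe sets also moved Hk1 with butyrate to -1.30, Pklr to 1.36 and 1.38 with high-fat diet, Arnt to 0.53 with high-fat diet and -0.57 with butyrate in the mutants, and Pdha1 with butyrate to 0.16 (adjusted p = 0.207).

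Whether replicate numbers pair the samples could not be told. Between the 2 genotypes, same-numbered arrays had deviations correlated at -0.243 and -0.326 (normal diet) and 0.012 (high-fat diet). In a group of 2 arrays the deviations mirror each other, so these values cannot decide on pairing. Same-numbered mutants had 0.28 and 0.416 between normal and high-fat diet, and from -0.307 to 0.129 between these and butyrate. The labels give the number no meaning, although the HFD arrays numbered 2 share a number in their identifiers. With an array left out, members and all genes passing ranged as follows. For genotype they were 0 to 4 and 2 to 329 over 3 diets, and 3 to 5 and 265 to 582 without butyrate. They were 0 to 1 and 0 to 174 on normal diet, 0 to 1 and 3 to 105 on high-fat diet, and 0 and 0 with butyrate. For high-fat against normal diet they were 1 to 3 and 439 to 1522 in the wild type and 1 to 4 and 990 to 2579 in the mutants. For butyrate in the mutants they were 1 to 5 and 1317 to 3085. For the interactions no member passed, and genes ranged from 1 to 10 for diet and 1 to 2 for butyrate. The causes of these shifts were not tested.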
